A study of Mus musculus with 28 samples.

Results

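O9-1 is a line of mouse cranial neural crest cells, the embryonic cells that build most of the bone, cartilage and connective tissue of the face. Its normoxic osteoblast cultures were compared here with its normoxic proliferating cultures, gene by gene, in 8 of the 28 RNA-seq libraries of the series. All 8 cultures were kept at 21% O2, and each group had 4 libraries, chosen by their labels. The proliferating cells grew in DMEM conditioned by STO feeder cells, with 15% fetal calf serum, 25 ng/ml basic FGF and 5 ng/ml leukemia inhibitory factor (LIF). The osteoblast cultures were kept for 10 days in alpha-MEM with 10% serum, 10 mM beta-glycerophosphate, 0.1 µM dexamethasone and 100 ng/ml BMP-2, so the medium, its growth factors and the time in culture all changed together with the cell state and cannot be told apart. The chondrocyte and smooth muscle cultures at 21% O2, 4 libraries each, served as further comparisons. Chondrocyte cultures had 3 days in the osteoblast medium and then 7 days as micromass on Matrigel, in alpha-MEM with 5% serum, insulin, transferrin and selenium, 0.1 µM dexamethasone, TGF-beta3 and 50 ng/ml BMP-2. Smooth muscle cultures had 3 days in DMEM with 10% serum and no added growth factor listed. The labels do not say that replicates were separate cultures, so the p-values measure the spread between these libraries, which may be technical.

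Bone of the skull vault and face forms directly from mesenchyme. In that sequence RUNX2 and then SP7 commit cells to the osteoblast fate, committed cells lay down a type I collagen matrix, and late osteoblasts make alkaline phosphatase, bone sialoprotein and osteocalcin while the matrix mineralises. BMP-2 drives osteoblast commitment, dexamethasone activates the glucocorticoid receptor, beta-glycerophosphate supplies phosphate, and FGF with LIF keeps neural crest cells dividing.

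Libraries held between 23357645 and 64693346 counts, and the osteoblast libraries alone at most 27748241. Mitochondrial transcripts took 0.51% to 0.62% of the counts in the proliferating and 0.95% to 1.36% in the osteoblast libraries. Values are CPM (a gene's counts scaled to a common library total) after TMM scaling over the 8 libraries, listed as replicates 1 to 4. Changes are log2 fold changes, osteoblast over proliferating, so that a change of 1 is a doubling in size, and "rose" or "fell" is written only of genes with an adjusted p under 0.05 in edgeR's quasi-likelihood test. Osteoblast replicate 4 stood apart from its group. It lay at least 2-fold from the mean of the other osteoblast libraries in 836 genes, against 46 to 65 genes for the other 3, so changes are given with and without it where it matters.

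The 3 genes given as markers of these cultures were all higher in every osteoblast library than in any proliferating library. Col1a1 (chr11:94936224-94953042), the alpha-1 chain of type I collagen, had 1637, 1701, 1612 and 1533 CPM in the proliferating and 6503, 6541, 6515 and 10804 CPM in the osteoblast libraries. It rose 4.68-fold (log2 fold change 2.23, SE 0.17, adjusted p = 1.31e-06; 1.97 without replicate 4). Aspn (chr13:49544443-49567565), asporin, a small leucine-rich matrix proteoglycan, had 2.6, 2.69, 1.32 and 3.04 CPM in the proliferating libraries. In the osteoblast libraries it had 4593, 4662, 4579 and 3895 CPM, a log2 fold change of 10.83 (SE 0.24). Kctd12 (chr14:102976581-102982637), an auxiliary subunit of GABA-B receptors, went from 0.419, 0.446, 0.368 and 0.473 CPM to 1345, 1394, 1366 and 1881 CPM, a log2 fold change of 11.75 (SE 0.19). Aspn and Kctd12 reached at most 3.04 CPM in a proliferating library and at least 1345 CPM in an osteoblast library, whereas Col1a1 was already abundant before differentiation. Coordinates are from GENCODE M21 on GRCm38.

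Most of the transcriptome differed between the groups. Of 14434 genes tested, 78.7% were called at an adjusted p under 0.05, 40.9% higher and 37.8% lower in the osteoblast libraries, and 44.2% were called with a change of at least 2-fold. Of the called genes 52% were higher with TMM and 46.3% with library size alone, so the scaling decides which direction has the more calls. Without replicate 4, 82.4% of the genes tested were called. In all, 11188 of the 11359 called genes kept their direction and their call without that library, 168 lost the call and 0 turned. The osteoblast and proliferating libraries did not overlap at all in 74.7% of the genes tested. At least 8-fold changes were found for 1092 genes that rose and 599 that fell. The median change over all genes was 0.07 with TMM and -0.08 when libraries were scaled by size alone, so a change smaller than that shift depends on the scaling. With so many genes called, sizes and the order of the libraries are given beside each call. Gene lists also hold members that passed the filter on low counts through the osteoblast libraries alone, since no proliferating library reached its limit, and for these a rise was nearly fixed by the filter. They were 7 of 11 cartilage genes tested, 5 of 16 smooth muscle genes, 5 of 16 Wnt genes, 4 of 10 fibroblast genes, 3 of 10 leucine-rich proteoglycans, 4 of 20 glucocorticoid targets and 4 of 24 matricellular genes. They were also 3 of 11 osteoblast transcription factors, 3 of 12 homeobox genes of the face, 3 of 15 fat cell genes, and at most 2 on each other list. Conversely, 4 of 12 cytokine genes, and at most 1 on each other list, passed through the proliferating libraries alone. Counts of rises and falls on the lists are therefore descriptions, to be read against the 40.9% and 37.8% over all genes.

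The largest rises and falls are given among genes called with and without replicate 4 whose mean reached at least 50 CPM in the higher group, ranked by fitted log2 fold change. For genes at 0 or a few counts before, that fit depends on a prior count, so the rank among such genes is not established. The largest rises were of genes with few or no counts before differentiation. Egfl6, a secreted protein with EGF-like repeats, had 0 counts in all proliferating libraries and 566, 554, 534 and 198 CPM in the osteoblast libraries, at least 23296-fold higher. This and the other lower limits are set against a floor of 3 counts over the 4 libraries of the group at 0. Also at 0 before were Fmo1, a flavin monooxygenase (at least 9291-fold), Hif3a, a hypoxia-inducible factor subunit (at least 5332-fold), and Eln, elastin (at least 3523-fold). Dpep1, a membrane dipeptidase, reached 394, 394, 397 and 301 CPM from at most 0.0898. Boc, a co-receptor for hedgehog ligands, reached 275, 268, 255 and 472 CPM. The carboxypeptidase M gene, Megf6, Col23a1, Col2a1 and Fmod were also among the 12 largest fitted rises.

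Among the largest falls were genes of receptors, ligands and nuclear regulators. Il1rl1, the receptor for interleukin-33, had 932, 955, 939.9 and 728 CPM in the proliferating and 1.04, 0.773, 0.82 and 1.38 CPM in the osteoblast libraries, 873-fold lower. Areg, the EGF receptor ligand amphiregulin, fell from 63.8, 63.6, 64.8 and 99 to 0, 0, 0.0781 and 0.112 CPM. Hmga1, a chromatin architectural protein of undifferentiated cells, fell from 1235, 1251, 1257 and 1219 to 8.75, 8.73, 8.39 and 7.46 CPM (log2 fold change -7.22, SE 0.08). In each of these genes every osteoblast library, replicate 4 included, was below 1% of the proliferating mean. Under the same limit, the 12 largest fitted falls also took in Etv4 and Fosl1, which are described with FGF signalling, Akr1c18, Msln, Ngef, Esm1, F2rl1, Ptprn and Fmnl1.

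In amount of RNA, the largest gains were of matrix genes. The 10 genes with the largest gain of CPM were Postn, Col12a1, Thbs1, Col1a2, Lox, Ogn, Col1a1, Bgn, Tnn and Sparc, which all encode secreted proteins of the extracellular matrix. Postn, periostin, a matricellular protein of periosteum and ligament, went from 26.3, 25.4, 23.7 and 34.7 CPM to 22084, 22218, 20719 and 14218 CPM. The largest losses included genes of protein synthesis, folding and growth. Crabp1, a retinoic acid binding protein, fell from 2572, 2636, 2557 and 2461 CPM to 40.8, 43.5, 45.1 and 9.36 CPM, and Hmga2 from 2111, 2058, 2122 and 1828 to 60.4, 63.6, 63.7 and 92.4 CPM. The chaperone gene Hsp90ab1 (log2 fold change -1.83), Hspa8 (-1.27), the elongation factor gene Eef1a1 (-0.68), Pabpc1 (-1.62), Ncl (-2.06), Tubb5 (-1.85), Pkm (-1.83) and Lgals1 (-1.76) complete the 10 largest losses. Several of these genes have near-identical processed copies in the genome, with which the counting could have split reads.

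**Figure D1:**
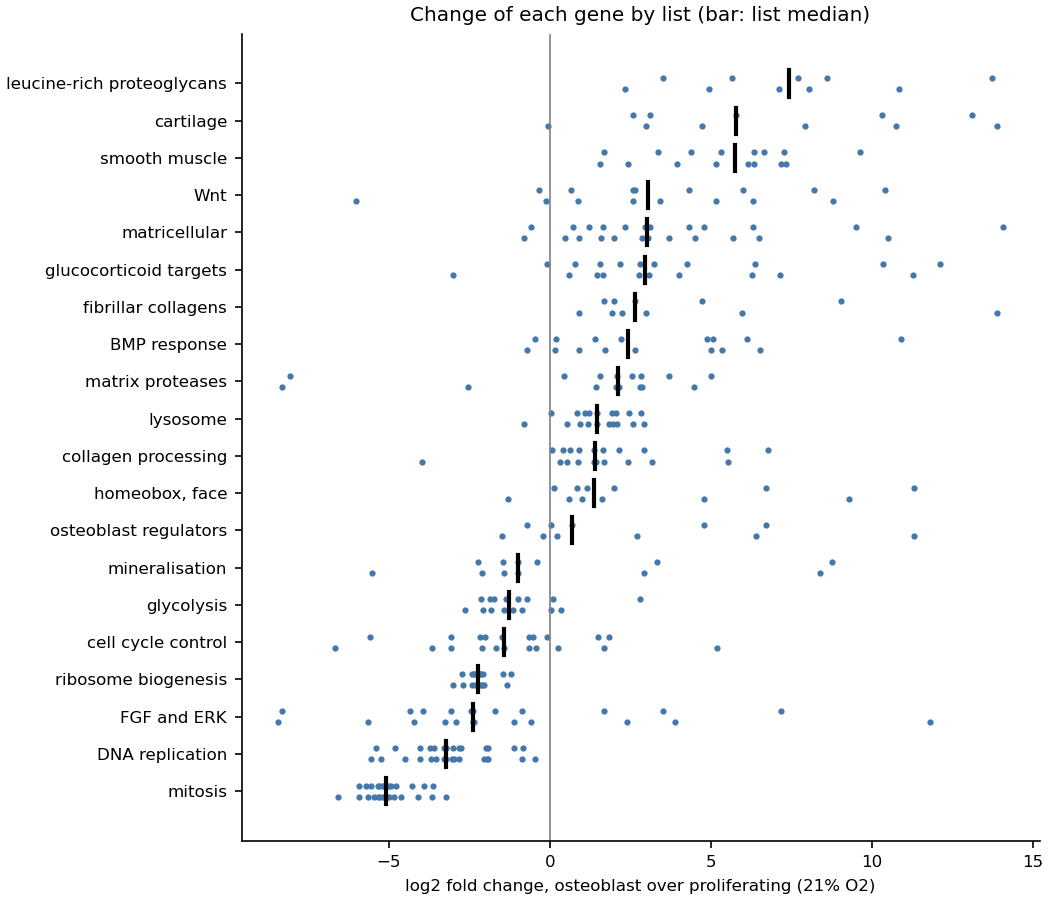
Log2 fold change, osteoblast over proliferating at 21% O2, of each tested member (point) of the gene lists, 1 row a list, with the list's median (bar). All members of the mitosis, DNA replication and ribosome biogenesis lists lie left of 0 and all of the fibrillar collagen, leucine-rich proteoglycan and smooth muscle lists right of 0.

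Cell division genes fell without exception, in all osteoblast libraries. All 31 of 31 genes of the mitosis list fell, with a median log2 fold change of -5.1, as did 31 of 31 genes of the DNA replication list, with a median of -3.23. Against 37.8% of all genes called lower and a median of 0.07, these are 100% of both lists. Ube2c, the ubiquitin-conjugating enzyme of the anaphase-promoting complex, had 208, 212, 209 and 173 CPM in the proliferating and 1.49, 1.77, 1.76 and 3.36 CPM in the osteoblast libraries. Ccnb1, cyclin B1, fell from 210.2, 215, 215 and 179 to 3.57, 2.59, 3.24 and 4.07 CPM, and Plk1, a mitotic kinase, by 52.1-fold. Uhrf1, which carries DNA methylation through replication, fell from 329.9, 327, 321 and 300.2 to 2.29, 3.18, 3.28 and 17.9 CPM. Mcm5, a subunit of the replicative helicase, fell from 269, 272, 262 and 228 to 4.7, 4.87, 4.41 and 22.3 CPM. Replicate 4 held more of these transcripts than the other osteoblast libraries, above their mean in 30 of 31 replication genes and 27 of 31 mitosis genes. The share of all genes with replicate 4 above the others was not counted. Such counts, here and for later lists, are therefore descriptions. Without replicate 4 the medians were -5.29 for mitosis and -3.4 for replication.

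Promoters of mitosis genes are shown because most, over their 300 bases, hold the letters of one element. Genes of mitosis are known to be repressed in resting cells by the DREAM complex, which binds an element called CHR, often with NF-Y bound at CCAAT boxes nearby, whereas E2F sites are typical of replication genes. RefSeq promoters (GRCm38.p6, 250 bases before to 50 after the start) were matched by symbol for 10151 of the 14434 genes tested, and for 25 of the 31 mitosis genes. For 23 of these, the table held a window of 120 bases that ends before the RefSeq start and before every GENCODE transcript of the gene. All 5 genes with the CHR letters on either strand in that window are shown, and the other 18 had none there. Capitals mark TTTGAA or its reverse complement (CHR) and CCAAT or its reverse complement, and each sequence runs 5′ to 3′ on the strand of the gene.
Cdc20, chr4:118437353-118437472, minus strand: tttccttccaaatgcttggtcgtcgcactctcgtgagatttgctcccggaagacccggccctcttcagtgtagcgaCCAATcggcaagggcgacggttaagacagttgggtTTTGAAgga
Mki67, chr7:135716380-135716499, minus strand: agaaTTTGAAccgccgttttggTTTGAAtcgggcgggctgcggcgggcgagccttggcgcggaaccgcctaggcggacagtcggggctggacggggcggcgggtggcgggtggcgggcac
Kif11, chr19:37376262-37376381, plus strand: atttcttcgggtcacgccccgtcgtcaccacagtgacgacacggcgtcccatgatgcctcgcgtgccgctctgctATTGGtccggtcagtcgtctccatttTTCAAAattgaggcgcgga
Top2a, chr11:99024190-99024309, minus strand: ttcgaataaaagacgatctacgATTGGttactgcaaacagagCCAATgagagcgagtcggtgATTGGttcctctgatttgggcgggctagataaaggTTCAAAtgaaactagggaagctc
Cdk1, chr10:69352939-69353058, minus strand: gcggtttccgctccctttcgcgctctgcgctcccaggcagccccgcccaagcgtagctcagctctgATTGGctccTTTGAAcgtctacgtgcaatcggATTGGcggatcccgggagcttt

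Cdc20, an activator of the anaphase-promoting complex, fell by 50.3-fold, and its CHR letters began 18 bases before the RefSeq start. In Kif11, a spindle motor, and Top2a, DNA topoisomerase II alpha, they began 19 and 23 bases before it, on the reverse strand. Cdk1, the mitotic kinase, had CHR letters between 2 CCAAT boxes, and Mki67, the Ki-67 antigen, had 2 copies and no CCAAT box in the window. Over the whole 300-base promoters, TTTGAA on either strand was found in 76% of 25 promoters of mitosis genes. The share was 12% over the 12996 promoters of all genes tested, 13.9% over genes called lower and 10.8% over genes called higher. CCAAT was in 76% of the mitosis promoters against 37.8% of all tested. The E2F letters TTTCCCGC or TTTGGCGC were in 34.5% of 29 promoters of replication genes, in 0 of the 25 mitosis promoters and in 2.86% of all promoters of genes tested. No one of these strings contains another, though neighbouring matches can share end bases. Of the other motifs searched, AP-1 (TGANTCA) was in 4.97% of the promoters of genes called higher and 5.56% of those called lower, TEAD (GGAATG) in 13.3% and 11.1%, and RUNX (TGTGGT) in 12.3% and 11.7%. The glucocorticoid receptor palindrome was in 1 promoter of the genes tested. A match describes letters and was not tested as a binding site.

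**Figure D2:**
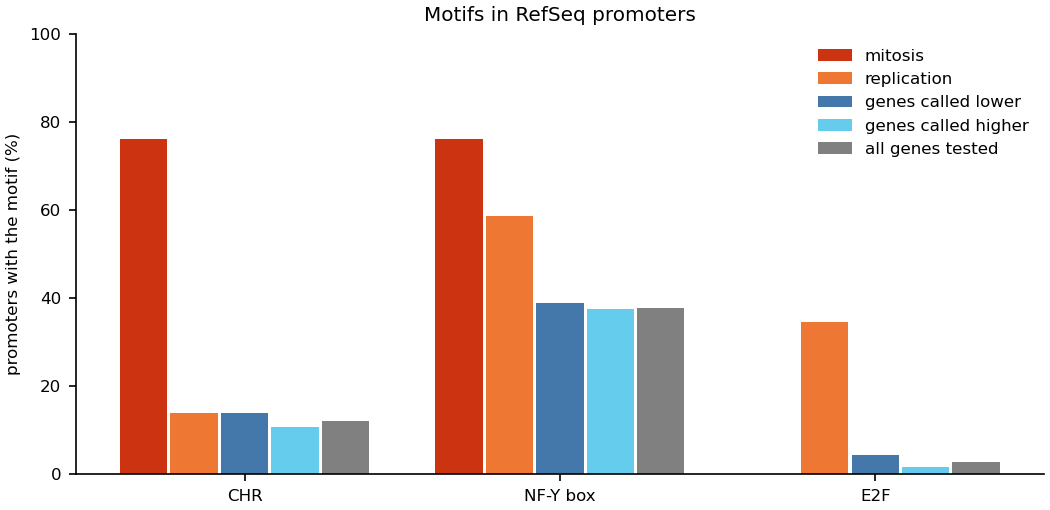
Share of RefSeq promoters (%) that hold the CHR, NF-Y or E2F letters, on either strand, in promoters of the mitosis list, the replication list, genes called lower, genes called higher and all genes tested. The bars show the CHR share at 76% for mitosis genes against 12% over all genes tested.

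The regulators of the cell cycle moved in both directions. Of 21 tested, 15 fell and 4 rose, beside 37.8% and 40.9% of all genes. Ccnd1, cyclin D1, which couples growth factor signals to the cycle, fell from 1347, 1356, 1354 and 1209 CPM to 172, 167, 171 and 113 CPM. Cdk6, its kinase partner, fell by 12.7-fold, and the E2F family genes E2f2 and E2f8 changed by -6.68 and -5.57 on the log2 scale (-6.53 for E2f8 without osteoblast replicate 4). Cdkn1c, the inhibitor p57, rose from 3.92, 3.31, 2.87 and 3.59 to 114, 111, 112 and 160.4 CPM, Cdkn1b, the inhibitor p27, by 2.81-fold, Rbl2, the pocket protein p130, by 3.56-fold and Ccnd3, cyclin D3, by 3.19-fold. Other inhibitors and pocket proteins fell, among them Cdkn2c (-1.43), Cdkn2d (-0.53), Cdkn1a (-0.44) and Rbl1 (-3.06). These 4 were named for their roles after their values were seen. Ccnd2 and Rb1 were not called (adjusted p = 0.244 and 0.108, edgeR), although Rb1 rose without replicate 4 (0.31) and Ccnd2 was called lower with library size alone (-0.24). Ribosome biogenesis fell with division, 20 of 20 genes with a median of -2.23. Dkc1, the pseudouridine synthase dyskerin, fell 8.13-fold and Fbl, the methyltransferase fibrillarin, 6.69-fold. In bulk RNA, fewer cells of a type and less RNA per cell cannot be told apart, so these values do not say what share of cells still divided.

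The bone programme was partial. The transcription factors of osteoblast differentiation rose for 7 of 11 genes tested, 3 of which passed the filter through the osteoblast libraries alone, beside 40.9% of all genes. Runx2, which stands at the head of the programme, was not called. It had 74.9, 72, 71.7 and 65.6 CPM in the proliferating and 68.5, 79.7, 78.6 and 66.5 CPM in the osteoblast libraries (log2 fold change 0.05, SE 0.08, adjusted p = 0.605, edgeR), and the groups overlapped. Sp7, which acts after Runx2 in bone formation, had 0.12, 0.163, 0.184 and 0.197 CPM before. After differentiation it had 1.33, 0.773 and 1.56 CPM in replicates 1 to 3 and 52.9 CPM in replicate 4, so all 4 libraries were above the proliferating ones but only replicate 4 held more than a trace. Its log2 fold change was 6.4 (SE 1.66) with replicate 4 and 2.84 without it, and its call was lost with limma-voom (adjusted p = 0.0824). Dlx5, a homeobox activator of osteoblast genes, was at 0 in all proliferating libraries and at 3.37, 4.18, 3.98 and 28.7 CPM in the osteoblast libraries, at least 539-fold higher with replicate 4 and at least 196-fold without it. Msx2 showed the same split, with 3.77, 5.09, 3.67 and 28.6 CPM from at most 0.276 CPM. Msx1, a homeobox gene of craniofacial mesenchyme, rose evenly in all 4 libraries, from 8.14, 7.56, 6.73 and 12.3 to 203, 231, 231 and 287 CPM. Runx1 fell from 63.9, 62.6, 57.3 and 53.8 to 20.3, 17.5, 19 and 27.9 CPM, and Cbfb, the shared partner of the RUNX factors, by 1.66-fold. Runx3 was not called with all libraries (log2 fold change -0.22) and fell without replicate 4 (-0.69). Dlx3, Dlx6 and Lef1 did not pass the filter on low counts, and 155 of the 157 osteoblast counts of Dlx3 came from replicate 4.

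Among the mineralisation genes, 4 of 12 tested rose and 8 fell, beside 40.9% and 37.8% of all genes, with a median of -0.99. Of the 12, 2 passed the filter through the osteoblast libraries alone. The enzymes and matrix proteins that mark late osteoblasts were low. Alpl, tissue-nonspecific alkaline phosphatase, had 0, 0, 0.147 and 0 CPM in the proliferating libraries, 1.85, 2.91 and 1.6 CPM in osteoblast replicates 1 to 3 and 46.6 CPM in replicate 4. Ibsp, bone sialoprotein, was at 0 in all proliferating libraries and at 0.442, 0.546, 0.546 and 3.73 CPM after differentiation, at least 70.5-fold higher with replicate 4 and at least 26.1-fold without it. Both were above the proliferating libraries in all 4 replicates and again most abundant in replicate 4. Spp1, osteopontin, fell from 2109.9, 2123, 2151 and 2972 CPM to 1157, 1117, 1129 and 1266 CPM, and Dmp1, a matrix phosphoprotein of osteocytes, fell from 4.16, 3.82, 2.94 and 3.23 to 2.29, 1.18, 1.29 and 0.522 CPM. Phex, an endopeptidase of phosphate control, fell from 23.5, 24.3, 23.8 and 32.2 to 0.602, 0.455, 0.468 and 0.709 CPM. Also lower were Slc20a1, a phosphate importer (4.71-fold), Ank, which exports pyrophosphate (4.34-fold), and Enpp1, which makes it (2.77-fold). Those that rose broadly were Sparc, osteonectin, from 699, 762, 733 and 762 to 5175, 5167, 4872 and 7269 CPM, and Mgp, the matrix Gla inhibitor of calcification, by 10.1-fold.

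The remaining members were too low to test. Over the 4 libraries, osteocalcin had 8 counts in the proliferating and 15 in the osteoblast group for Bglap, 0 and 19 for its near-identical copy Bglap2, and 14 and 5 for Bglap3. Mepe had 0 and 75, Phospho1 5 and 22, Sost 0 and 16, and Ifitm5 55 and 15 counts. Of the osteoblast counts, 14 of 15 for Bglap, 14 of 19 for Bglap2 and 0 of 5 for Bglap3 were in replicate 4. Of the markers that define the labelled cell type, Runx2 and type I collagen were thus present in all libraries. Sp7, Alpl and Ibsp stayed below 3 CPM in replicates 1 to 3, and the counts of osteocalcin were near 0 in the whole group. Reads that match both Bglap and Bglap2 may be missing from these counts. Per kilobase of exon, the scale on which genes can be compared, the mean osteoblast level was 1157 CPM per kb for Col1a1 and 1484 for Sparc, and 8.3 for Runx2, 4.16 for Sp7, 3.28 for Alpl and 0.636 for Ibsp. Without replicate 4 the means were 8.55 for Runx2, 0.359 for Sp7, 0.525 for Alpl and 0.247 for Ibsp. On the signals from osteoblasts to other cells, Pth1r, the parathyroid hormone receptor, was at 0 before and at 7.27, 6.55, 6.52 and 33.6 CPM after. Tnfrsf11b, the decoy receptor osteoprotegerin, rose 5.59-fold and Csf1 1.86-fold, while Tnfsf11, RANKL, had 42 and 25 counts and was not tested.

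**Figure D3:**
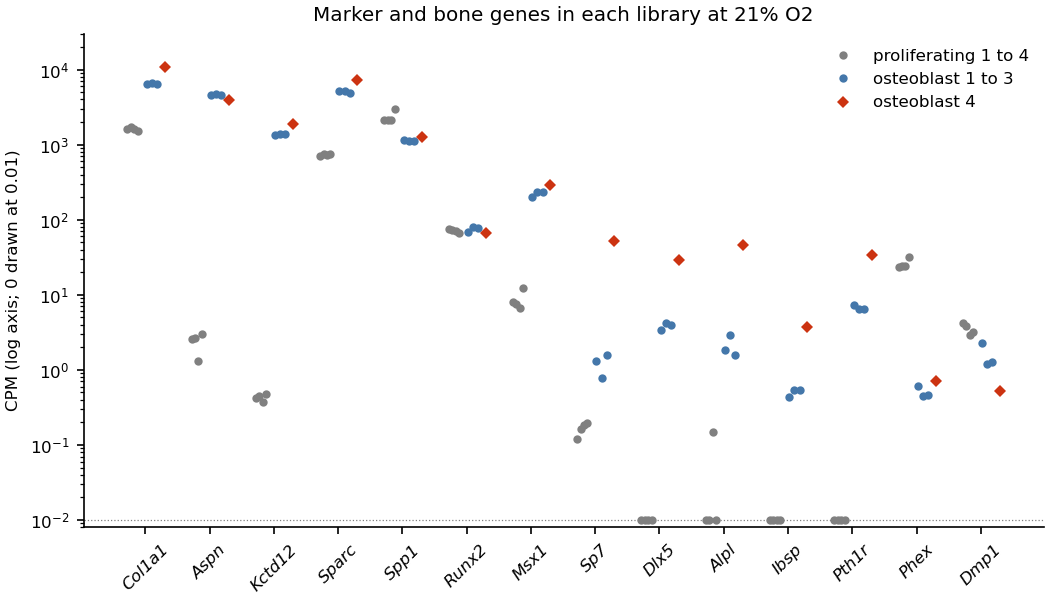
CPM (log axis, with values of 0 drawn on the lower edge) of bone genes and of the 3 marker genes in the 4 proliferating libraries (grey circles), osteoblast replicates 1 to 3 (blue circles) and osteoblast replicate 4 (red diamonds). Sp7, Dlx5, Alpl, Ibsp and Pth1r show replicate 4 far above replicates 1 to 3, whereas Runx2 shows the groups at the same height.

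The fibrillar collagens rose together. All 11 of 11 tested genes on the list of fibrillar collagens and their chaperone rose, with a median of 2.65, against 40.9% of all genes called higher. Summed over the 12 members of the list, chaperone included, the level was 6823 to 7226 CPM in the proliferating and 29488 to 38231 CPM in the osteoblast libraries. Col11a1, a chain of type XI collagen, rose from 1.97, 2.38, 2.58 and 7.65 CPM to 1869.7, 1898, 1881 and 1688 CPM. Col2a1, the collagen of cartilage, rose from at most 0.0789 CPM to 40.9, 43.9 and 50.2 CPM in replicates 1 to 3 and 903 CPM in replicate 4, a call that was lost with limma-voom (log2 fold change 12.15, adjusted p = 0.0732). Col27a1 and Col11a2 rose by 5.96 and 4.73 on the log2 scale (5.54 and 3.15 without replicate 4). The enzymes that modify and cross-link collagen rose for 18 of 20 genes. Lox, lysyl oxidase, which cross-links collagen and elastin, went from 58.7, 59.9, 59 and 67 CPM to 6874, 7062, 7003 and 5744 CPM. P4ha3, a prolyl hydroxylase subunit, rose 45.6-fold, Adamts2, a procollagen N-proteinase, 45.8-fold and Loxl2 8.93-fold. The exceptions were Adamts14, another procollagen N-proteinase, which fell by 15.6-fold (26.3-fold without replicate 4), and Loxl4, which was not called (adjusted p = 0.749, edgeR) and fell slightly without replicate 4 (-0.16).

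Small leucine-rich proteoglycans, which coat and space collagen fibrils, rose in 10 of 10 genes tested, with a median of 7.41, beside 40.9% of all genes. Of the 10, 3 passed the filter through the osteoblast libraries alone. Ogn, osteoglycin or mimecan, had 16.2, 17, 18.5 and 14.9 CPM before and 7005, 7188, 7242 and 4558 CPM after. Fmod, fibromodulin, had 1 count over the proliferating group and 62.4, 65.5, 66.2 and 371 CPM in the osteoblast libraries, a count ratio of 22607 (95% exact Poisson limits 4057 and 892921, counting error only), and of 9918 without replicate 4. Prelp rose by 8.06 on the log2 scale. Of the 24 matricellular and elastic fibre genes tested, 22 rose and 2 fell, the latter being Efemp1 (-0.79) and Ltbp1 (-0.6). Of the 24, 4 passed the filter through the osteoblast libraries alone. Tnn, tenascin-W, a glycoprotein of developing bone, went from 3.05, 4.69, 3.42 and 3.51 CPM to 4994, 4987, 4877 and 6639.5 CPM, and Mfap5, a microfibril protein, rose by 6.48 (5.2 without replicate 4). Summed over the list, these genes took 4194 to 4815 CPM before and 43578 to 51457 CPM after.

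Proteases of the matrix and their inhibitors moved in opposite directions. Of 16 tested, inhibitors included, 12 rose, 3 fell and 1 was not called, beside 40.9% of all genes higher and 37.8% lower. Mmp2, gelatinase A, rose from 390.3, 396, 383 and 375 to 2835, 2827, 2751 and 2791 CPM, Adamts1, which cleaves proteoglycans, 31.7-fold, and Timp3, an inhibitor bound to matrix, 12.9-fold. Adamts5, an aggrecanase, had 58.5, 58.1 and 57.8 CPM in replicates 1 to 3 and 12.7 CPM in replicate 4, all above the proliferating libraries. The stromelysin gene Mmp3 fell from 54.1, 55.8, 54.5 and 35.6 CPM to 0.201, 0.091, 0.429 and 0 CPM, and Mmp10 from 1.65, 1.32, 0.846 and 1.18 CPM to 0 counts, at least 42.6-fold lower. Timp1 fell from 168, 181, 173 and 157 to 21, 19.3, 21.2 and 54.2 CPM. Mmp16 overlapped between the groups with replicate 4 (log2 fold change 0.43, adjusted p = 0.0609) and rose without it (0.58). It was also called with all libraries with the replicate number as a block (0.39) and in the fit on all 16 normoxic libraries (0.42).

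Contractile genes of smooth muscle rose as well. All 16 of 16 tested rose, with a median of 5.74, beside 40.9% of all genes. Of the 16, 5 passed the filter through the osteoblast libraries alone. The list summed to 1370.3 to 1423 CPM in the proliferating and 10988 to 13677 CPM in the osteoblast libraries. Lmod1, leiomodin, which nucleates smooth muscle actin filaments, had 0.12, 0.0891, 0.0736 and 0.276 CPM before and 113, 101, 107 and 87.5 CPM after. Myl9, the regulatory myosin light chain, rose from 3.2, 2.93, 2.83 and 4.57 to 452, 450.2, 456 and 582 CPM. Myocd, the coactivator of the smooth muscle programme, rose from at most 0.0446 CPM to 8.07, 5.64, 5.89 and 3.88 CPM, and Actg2, enteric smooth muscle actin, to 10.9, 12, 12.2 and 41 CPM. Kcnmb1 and Pln were listed at 0 in all 8 libraries, and Des had 2 and 27 counts.

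Cartilage matrix genes were more abundant in the osteoblast libraries, most of all in replicate 4. Of 22 genes on the list 11 passed the filter, most of them through the osteoblast libraries alone, so no count of rises is given. Summed over all 22, the level was 119 to 166 CPM in the proliferating libraries and ran from 244.1 CPM to 1898 CPM in the osteoblast libraries, with replicate 4 at the top. Sox9, the regulator of cartilage fate, had 92.8, 100.3, 94.5 and 134 CPM before and 58.8, 63.1, 59.4 and 225 CPM after. It was not called with all libraries (log2 fold change -0.05, adjusted p = 0.917) and fell without replicate 4 (-0.84, adjusted p = 0.000296, edgeR). Col9a1, a chain of cartilage collagen IX, was at 0 before and had 3.33, 5.28, 6.09 and 123 CPM after, a call lost with no filter on low counts (adjusted p = 0.0908). Col9a2 had 4.18, 4.41, 5.66 and 57.6 CPM, and Matn4, a matrilin, 4.02, 4.0, 4.8 and 7.24 CPM, again from 0 or 1 count in the proliferating group. In replicates 1 to 3 these collagen IX genes were thus at most at 6.09 CPM.

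Fibroblast and fat cell genes moved in both directions. Fibroblast genes rose in 8 of 10, beside 40.9% of all genes, and 4 of the 10 passed the filter through the osteoblast libraries alone. They fell in 2, Has1, a hyaluronan synthase (-5.43), and Ly6a, the antigen Sca-1 (-3.15, and -3.99 without replicate 4). Clec3b, tetranectin, rose by 5.59 (6.45 without proliferating replicate 3). Of 15 fat cell genes tested, 11 rose and 2 fell, and 3 of the 15 passed the filter through the osteoblast libraries alone. Apod, apolipoprotein D, rose from at most 0.329 CPM to 122, 119, 120.3 and 54.8 CPM. Zfp423, a regulator of preadipocytes, rose from 0 counts to 0.522, 0.773 and 0.781 CPM in replicates 1 to 3 and 5.3 CPM in replicate 4. Fabp4 reached only 3.98, 2.91, 3.32 and 7.09 CPM and Cebpa 1.33, 1.5, 1.56 and 6.23 CPM. Plin1, Adipoq and Cd36, which define mature fat cells, were at 0 in all 8 libraries. Of 4 tendon genes tested, Scx, Mkx and Fmod rose (0.81, 2.33 and 13.72), and Egr1 was called only without replicate 4, as a fall. Tnmd was at 0 throughout.

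Several defining markers of other cell types were at 0, while other members of their lists were not. Sox10, which defines Schwann cells, and the melanocyte genes Dct, Tyr and Tyrp1 were at 0 in all 8 libraries, as were Myod1 and Myog of skeletal muscle, Itgam of leukocytes and Tie1 of endothelium. The summed level of the 7 leukocyte genes was 11.7 to 14.8 CPM in the proliferating and 4.0 to 5.45 CPM in the osteoblast libraries. The 7 endothelial genes summed to 205 to 221 and 206 to 226 CPM, nearly all of it Flt1, a VEGF receptor, at 215, 212, 220.2 and 204 and 217, 226, 221 and 203 CPM, which was not called (adjusted p = 0.695), while Cdh5 had 20 and 0 counts. The 7 epithelial genes summed to 4.73 to 6.35 and 1.56 to 82.5 CPM, the upper end being Krt19 in replicate 4. The 8 Schwann cell genes summed to 51.8 to 75.4 and 332 to 452 CPM, mostly Pmp22, which rose 7.47-fold and is not restricted to these cells. The 8 neuronal genes summed to 5.92 to 11 CPM in the proliferating and 59.5 to 139.8 CPM in the osteoblast libraries. The latter sum was mostly Map2, a microtubule protein, which rose 63.6-fold. Of the 3 neuronal genes tested, 1 rose, 1 fell and 1 was not called, with a median of -0.91. Without replicate 4, 1 rose, 2 fell and the median was -2.48. Below the filter, Elavl4 had 71 and 0 counts and Syt1 had 0 and 51. The 7 melanocyte genes summed to 6.25 to 12.5 CPM in the proliferating and 30.3 to 33.2 CPM in the osteoblast libraries. Both tested ones rose, Mitf, the melanocyte regulator, by 1.88 and Pmel by 1.78, and Mlana, which did not pass the filter, had 1 and 135 counts, 3 of the latter in replicate 4. The 8 skeletal muscle genes summed to 0.276 to 0.442 and 4.09 to 8.09 CPM. Both tested ones rose, Acta1, skeletal actin, by 3.37 and Tnnt3, a troponin, by 5.54. The part of other cell types in the results was not tested.

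Gene groups linked to the factors in the media were read next. Glucocorticoid receptor targets rose in 18 of 20 genes, with a median of 2.94, in the medium that held dexamethasone, beside 40.9% of all genes. Of the 20, 4 passed the filter through the osteoblast libraries alone. Zbtb16, the zinc finger protein PLZF, a strongly induced target, had 0.0898, 0.0297, 0 and 0 CPM before and 175, 169.9, 167 and 131 CPM after. Klf15, a metabolic regulator, rose from at most 0.147 CPM to 64.6, 64.2, 64.8 and 32.2 CPM. Sult1a1, a sulfotransferase, had 2 counts before and rose by a count ratio of 3188 (95% exact Poisson limits 883 and 26327), and Lcn2, lipocalin 2, by 7.15 on the log2 scale (8.07 without proliferating replicate 2). Replicate 4 lay above the mean of the others in 4 of these 20 genes. The receptor itself, Nr3c1, had 152, 154, 154 and 155 CPM before and 145, 143, 148 and 136 CPM after and was not called (log2 fold change -0.1, adjusted p = 0.0965, edgeR). It was called as a fall without replicate 4 (-0.11), with library size alone (-0.25), with DESeq2 size factors and with DESeq2's test (-0.12 each). Angptl4 fell by 8.07-fold.

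BMP response genes rose in 11 of 16, with a median of 2.42, in the medium with BMP-2, beside 40.9% of all genes. The other 5 were not called. Nog, the secreted BMP antagonist noggin, had 0.329, 0.431, 0.294 and 0.158 CPM before, 1.12, 1.5 and 2.03 CPM in replicates 1 to 3 and 87.5 CPM in replicate 4, a call lost with limma-voom (adjusted p = 0.125). Hey1, a repressor induced by BMP and Notch, had 2 counts before and 9.52, 10.6, 9.09 and 102 CPM after. Smad9, a BMP receptor substrate, rose from at most 0.359 to 19.7, 19.1, 20.3 and 46.9 CPM. Chrdl1, a BMP antagonist, rose evenly, from 1.65, 1.2, 1.03 and 0.67 to 48, 52.4, 46.8 and 44 CPM. Replicate 4 was above the mean of the others in 15 of the 16 genes, by a median of 1.3 on the log2 scale. Fst and Bmper, modulators of BMP and activin, were not called with all libraries (log2 fold changes -0.72 and -0.47, edgeR) and fell without replicate 4 (-1.21 and -1.32). For Fst the fall was also called with limma-voom, DESeq2, library size alone, the fit on all 16 normoxic libraries and without proliferating replicate 4 (-0.74 to -0.86). Id4, Grem1 and Bambi were not called either way.

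Genes of FGF and ERK signalling mostly fell in the osteoblast medium, for which the labels list no FGF. Of 23 tested, 16 fell and 6 rose, beside 37.8% and 40.9% of all genes, with a median of -2.38. Etv4, an ETS factor transcribed in response to FGF, had 128, 126, 118 and 138 CPM before and 0.281, 0.182, 0.39 and 0.559 CPM after. Fosl1, the AP-1 subunit FRA1, fell from 271, 274, 263 and 234 to 0.321, 0.455, 0.624 and 1.79 CPM. Dusp6, the phosphatase that feeds back on ERK, fell from 98.8, 102, 99.6 and 98.3 to 4.54, 5.73, 5.07 and 4.21 CPM, and Dusp4 by 50.2-fold. All 3 receptor genes on the list rose. Fgfr1 rose by 1.69 on the log2 scale, Fgfr2 from 5.33, 4.65, 5.78 and 7.41 CPM to 725, 746, 717 and 1113 CPM, and Fgfr3 from 2 counts to 18.1, 17.3, 19.1 and 185 CPM. Il17rd, an inhibitor of FGF signalling, and Fos rose by 3.87 and 3.52. Egr1 had 28.3, 26.7 and 31.8 CPM in osteoblast replicates 1 to 3 and 7.65 CPM in replicate 4, all below the proliferating libraries. It was called only without replicate 4, with a log2 fold change of -0.34 against -0.6 with it (adjusted p = 0.000938 and 0.138, edgeR).

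Among the ligands and receptors of the EGF family, 5 of 9 fell and 3 rose, beside 37.8% and 40.9% of all genes. Beside Areg, the ligands Ereg, Btc and Nrg1 fell (-4.04, -3.14 and -2.79), whereas the ligand Tgfa rose from 2.87, 2.47, 2.69 and 5.21 to 206, 217, 215 and 134 CPM. The receptor Egfr rose from at most 0.359 to 10.9, 10.1, 9.91 and 7.68 CPM and Erbb2 by 1.87-fold. Erbb3 was not called with replicate 4, which held 3.77 CPM, and fell without it (-2.56). For LIF, the transcript of the cells' own Lif fell from 23.8, 27.9, 29.3 and 27.9 to 0.402, 0.546, 0.859 and 0.448 CPM. Its receptor Lifr rose from 8.47, 6.63, 7.95 and 9.19 to 138, 145, 146 and 89.96 CPM, and Osmr, Stat3 and Il6st rose by 3.76, 1.93 and 1.52. The feedback target Socs3 and Junb were not called (adjusted p = 0.865 and 0.553, edgeR). Without replicate 4, Socs3 rose (0.16) and Junb fell (-0.23). Bcl3 fell by 2.31-fold.

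Wnt pathway genes rose in 11 of 16 tested, beside 40.9% of all genes, and 5 of the 16 passed the filter through the osteoblast libraries alone. Dkk2, a secreted Wnt inhibitor, fell from 855, 847, 862 and 748 CPM to 14.9, 16.3, 13.5 and 6.64 CPM. Apcdd1 fell by 1.25-fold. Nkd1, a feedback inhibitor, rose from at most 0.134 to 19.3, 17.3, 18.3 and 31.9 CPM, Frzb, a secreted Wnt binder, to 13.6, 15, 15.3 and 10.1 CPM, and the ligand Wnt4 to 22.5, 22.7, 24.8 and 48.6 CPM. Wif1, another secreted Wnt inhibitor, had 0.843, 1.14 and 1.76 CPM in replicates 1 to 3 and 53.4 CPM in replicate 4. Tcf7 and Notum were not called with replicate 4 and fell without it (-1.27 and -1.41). In the insulin-like growth factor system 9 of 10 rose. Igf1 rose from at most 0.276 CPM to 63.6, 66, 61.9 and 93.1 CPM, and Igfbp7 from 2.42, 1.89, 3.24 and 4.22 to 229, 235, 236 and 306 CPM. Igf2 was at 0 before and at 0.803, 0.864, 0.742 and 2.57 CPM after, and H19, the non-coding RNA of the same imprinted locus, had 3.41, 3.22, 3.72 and 2.48 CPM before and 32.6, 31.3, 33.5 and 367 CPM after. Igfbp5 did not pass the filter, and 954 of its 1010 osteoblast counts were in replicate 4.

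Of 16 targets and members of the YAP and TEAD pathway 8 rose and 6 fell, shares near the 40.9% and 37.8% over all genes, with a median of 0.2. Ccn2, connective tissue growth factor, rose from 53.5, 60.00, 51.9 and 15.1 to 774, 789, 763 and 1253 CPM and Ccn1 by 4.22-fold, both highest in replicate 4. Ankrd1, another target, fell from 83.4, 84.9, 92.8 and 56.9 to 4.7, 5.41, 4.76 and 14 CPM. Crim1 and Tead3 rose (2.41 and 1.75), and Tead2, Ajuba and Axl fell (-1.2, -1.1 and -1.05). Wwtr1 was not called, and Lats1 was called only with library size alone (-0.19). The TEAD letters GGAATG were in 70.6% of 17 promoters of this list, against 12.3% of the promoters of all genes tested, though the list is built from known TEAD targets.

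Neural crest genes moved in both directions. Of 20 genes on the list 11 passed the filter, of which 5 fell and 3 rose, beside 37.8% and 40.9% of all genes. Without replicate 4, 7 fell and 3 rose, and the median moved from -0.05 to -2.31. Sox10, Foxd3, Pax7 and Zic1 were at 0 in all 8 libraries, the proliferating ones included. Myc fell from 217, 222, 221 and 175 to 21.4, 21.7, 20.02 and 46.8 CPM, Mycn from 7.48, 5.93, 6.81 and 5.05 to 0.0803, 0, 0.0781 and 0.0746 CPM and Twist2 by 5.4-fold. Twist1, a regulator of cranial mesenchyme, was not called (log2 fold change 0.12, adjusted p = 0.289). Tfap2a, Snai1 and Snai2 rose (1.83, 2.1 and 1.57). Homeobox genes of the face rose in 10 of 12 tested, of which 3 passed the filter through the osteoblast libraries alone. Beside the Msx and Dlx genes, Alx4, a homeobox gene of the frontonasal skeleton, went from 0 to 0.924, 1.36, 0.898 and 6.64 CPM. Lhx6 fell by 2.45-fold and Barx1 was not called.

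Among metabolic genes, glycolysis fell in 12 of 16, beside 37.8% of all genes. Eno1, enolase, fell from 1308, 1311, 1355 and 1313 CPM to 195, 185, 191 and 287 CPM, Ldha, lactate dehydrogenase, from 944, 995, 999 and 953 to 191, 176, 184 and 363 CPM and Hk2, hexokinase 2, by 3.64-fold. Pfkp, the platelet phosphofructokinase, rose from 12.7, 13.6, 12.8 and 18.7 to 106, 96.8, 94.6 and 100.2 CPM. Pfkm rose 1.27-fold, a call that was lost without osteoblast replicate 1 or proliferating replicate 1 or 3, and with library size alone (log2 fold change 0.20). The glucose transporter Slc2a1 and Hk1 were not called (adjusted p = 0.704 and 0.479), though Hk1 was without proliferating replicate 4 (0.20). Gapdh lost its call without replicate 4 (adjusted p = 0.0631, edgeR). It has many processed copies, with which the counting could have split reads, and this was not tested. Sterol and fatty acid synthesis fell in 12 of 20 and rose in 2, by small amounts, with a median of -0.39. Elovl6 and Fasn fell most, by 3.87-fold and 2.14-fold, and Idi1 and Acaca by 1.99-fold and 1.97-fold, while Hmgcs1 and Scd1 were not called.

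Lysosomal genes rose in 17 of 19, beside 40.9% of all genes, with a median of 1.47. Lamp2, a lysosomal membrane protein, rose from 141, 149, 152 and 172 to 896, 920.5, 904 and 658 CPM, and Neu1, Hexa and Npc1 by 7.63-fold, 7.16-fold and 6.0-fold. Ctsl, cathepsin L, fell by 1.75-fold. Complement genes rose in 6 of 7, led by the classical pathway proteases C1s1, from at most 2.37 to 162, 170.4, 163 and 102 CPM, and C1ra, to 164, 164, 167 and 107 CPM. C3 rose by 3.06, and C2 fell by 1.59-fold, a call that was lost without osteoblast replicate 1 or 2 or proliferating replicate 2 or 3, and in the fit on all 16 normoxic libraries. Of 16 interferon targets 7 fell and 4 rose, beside 37.8% and 40.9% of all genes. Bst2 fell from 149, 164, 149 and 78 to 33.5, 33.7, 36.3 and 17.5 CPM, Isg15, Oasl2 and Irf7 by 8.53-fold, 4.53-fold and 3.67-fold, and Tapbp rose by 2.9-fold. Of 12 cytokine genes 6 fell and 4 rose, beside the same 37.8% and 40.9%, and 4 of the 12 passed the filter through the proliferating libraries alone. Ccl2 fell from 16.2, 16.7, 16.7 and 30.7 to 0.0803, 0.091, 0.234 and 0.112 CPM, and Cxcl10 and Ccl5 went to 0 counts, at least 55.1-fold and 32.8-fold lower, while Cxcl12 rose from 51.2, 52.2, 49.8 and 18.9 to 281, 289, 292 and 121 CPM.

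Stress-linked genes moved in both directions. Of 13 ATF4 target genes 8 fell and 4 rose, beside 37.8% and 40.9% of all genes. Slc7a11, the cystine importer, fell from 29.8, 31.2, 32.6 and 65 to 1.2, 1.09, 1.33 and 1.42 CPM, the serine and glycine synthesis genes Psat1, Shmt2 and Psph by 3.98-fold, 3.77-fold and 2.54-fold, and Trib3, Atf5 and Slc3a2 rose by 4.83-fold, 3.26-fold and 2.84-fold. Of 14 oxidative stress genes 6 fell, led by Txnrd1 (-2.05) and Srxn1 (-1.29), and 5 rose, shares near those over all genes. Gpx3, the secreted glutathione peroxidase, rose from at most 0.238 CPM to 208, 215, 233 and 191 CPM and Hmox1, heme oxygenase, from 24, 22.5, 23.6 and 27 to 145, 156, 148 and 95 CPM.

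Osteoblast replicate 4 carried a pattern of its own, given here as a description of that library without a test. Of the 836 genes at least 2-fold from the mean of the other 3, 509 were above and 327 below. Among genes with a mean of at least 10 CPM in the osteoblast libraries, the 10 furthest above were Nog, Krt19, Sp7, Wif1, Col9a1, Cxcl14, Col2a1, Alpl, Hapln1 and Tgfbi. They take in 3 cartilage matrix genes, Col2a1, Col9a1 and Hapln1, and 2 osteoblast genes, Sp7 and Alpl. Tgfbi, a matrix protein induced by TGF-beta, had 30.5, 31.9 and 34.7 CPM in replicates 1 to 3 and 374 CPM in replicate 4, on either side of the proliferating libraries at 72.1, 71.3, 70.7 and 81.8 CPM. Its log2 fold change was 0.67 with replicate 4 and -1.23 without it. Krt19, keratin 19, had 1.45, 1.46 and 1.41 CPM and 82.4 CPM, and Cxcl14, a chemokine, 1.73, 2.0 and 1.99 CPM and 50.3 CPM. The 10 furthest below were Osbp2, Clic5, Pamr1, Fgf18, Adamts5, Crabp1, Ppm1l, Crabp2, Dtx4 and Agtr2. Fgf18, a ligand of skeletal growth, had 21.5, 19.5 and 19.1 CPM in replicates 1 to 3 and 3.99 CPM in replicate 4, and Crabp2 34.6, 32.8 and 31.5 CPM and 7.53 CPM. Both retinoic acid binding proteins, Crabp1 and Crabp2, were thus low in that library.

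By list, the median difference of replicate 4 from the other 3 libraries was 2.17 on the log2 scale for cartilage genes and 1.3 for BMP response genes. It was 0.73 for fibrillar collagens with their chaperone and 0.66 for mitosis genes. It was -0.38 for glucocorticoid targets, -0.37 for lysosomal genes and 0.33 for smooth muscle genes. Across the 14434 genes, Pearson's r of log2 CPM with the mean of the chondrocyte libraries was 0.942 for replicate 4 and 0.918 to 0.919 for replicates 1 to 3. With the mean of the smooth muscle libraries it was 0.93 and 0.945 to 0.946. These are correlations across genes that share the scaling, and genes are not independent replicates. Proliferating replicate 4 also lay further from its group than the others, at least 2-fold in 150 genes against 13 to 30. Among the genes above it held 15.1 CPM of Ccn2 against 53.5, 60.00 and 51.9 CPM in the other 3.

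**Figure D4:**
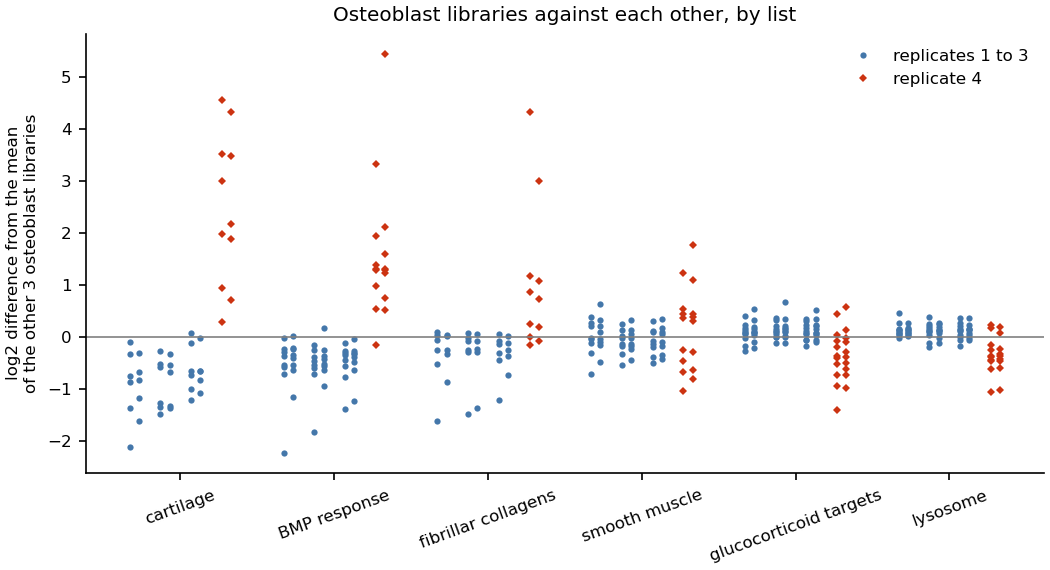
Log2 difference of each osteoblast library from the mean of the other 3 (log2 of CPM + 0.5), for the members of 6 gene lists, with replicate 4 in red and replicates 1 to 3 in blue. Replicate 4 lies above 0 for most cartilage and BMP response genes, with medians of 2.17 and 1.3, and below 0 for most glucocorticoid targets.

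The osteoblast cultures were next set against the chondrocyte and the smooth muscle cultures at 21% O2, to see which gene groups also differed between differentiated cultures. Both comparisons are direct tests between differentiated groups, since changes against the same proliferating libraries share their controls. Of the genes tested against chondrocytes, 31.1% were called higher and 28.6% lower in osteoblasts, and against smooth muscle 25.3% and 24.4%. Scaling by library size alone moved the higher share of the calls from 52% to 65.7% against chondrocytes and from 50.9% to 28.4% against smooth muscle, with a shift of the median of all genes from 0.03 to 0.19 and from 0 to -0.21. Ranges in the next paragraphs are lowest to highest CPM on a scale set over all 16 normoxic libraries.

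Against chondrocytes, the osteoblast cultures held less of the fibrillar collagens and of most cartilage genes tested, whereas the matricellular and leucine-rich proteoglycan lists had more genes higher than lower. Genes of the fibrillar collagens and their chaperone were lower in 11 of 11, with a median of -2.04. Col1a1 ranged over 6364 to 10543 CPM in osteoblast and 39927 to 47523 CPM in chondrocyte libraries (log2 fold change -2.54, SE 0.18). Collagen-modifying enzymes were lower in 12 of 20. Cartilage genes were lower in 8 of 11 and mineralisation genes in 9 of 12. Matricellular genes were higher in 13 and lower in 5 of 24, and leucine-rich proteoglycans higher in 5 and lower in 2 of 10. Ibsp ranged over 0.432 to 3.64 CPM in osteoblast and 838 to 2152 CPM in chondrocyte libraries, and Dmp1 over 0.509 to 2.24 and 43.2 to 58.2 CPM. Alpl was lower (-4.5, SE 1.16), as were Sp7 (-3.77) and Runx2 (-0.46). Without replicate 4 the differences were -7.16 for Alpl and -7.28 for Sp7, while the call of Sp7 was lost without osteoblast replicate 1, 2 or 3 or chondrocyte replicate 1, 2 or 3. Ibsp, Dmp1 and Alpl were thus more abundant in the libraries labelled chondrocyte than in those labelled osteoblast. Sox9 was not called between them (adjusted p = 0.147, edgeR) and was lower in osteoblasts without replicate 4 (-1.58).

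Glucocorticoid targets were higher in the osteoblast cultures in 18 of 19, with a median of 1.69, and smooth muscle genes in 13 of 16, with a median of 1.91. Also higher were 14 of 20 sterol and fatty acid genes, 11 of 15 interferon targets and 10 of 16 Wnt genes, with smaller medians of 0.49, 0.63 and 1.21. Zbtb16 ranged over 128 to 172 CPM in osteoblast and 21.9 to 50.7 CPM in chondrocyte libraries. Both media held dexamethasone. Myocd ranged over 3.79 to 7.9 and 0 to 0.125 CPM. Aspn and Ogn were higher (2.62 and 5.35), and Kctd12 too (1.44). Egfl6 ranged over 194 to 554 CPM in osteoblast and 0 to 1.04 CPM in chondrocyte libraries. Mitosis genes were lower in 31 of 31, with a median of -3.36, and glycolysis genes in 14 of 16.

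Against smooth muscle cultures fewer contractile genes passed the test. Of 16 smooth muscle genes 6 were higher, 1 was lower, and the median was 0.21. Myl9 ranged over 439.5 to 568 CPM in osteoblast and 501 to 584 CPM in smooth muscle libraries (adjusted p = 0.13, edgeR), and was lower in osteoblasts without replicate 4 (-0.29) or with library size alone (-0.40). Lmod1 and Myocd were higher in osteoblasts (0.83 and 4.78). Glucocorticoid targets were higher in 17 of 20, with a median of 2.72, Zbtb16 ranging over 128 to 172 CPM and 0 to 0.165 CPM. Mitosis genes were lower in 31 of 31 (median -3.05), whereas ribosome biogenesis genes were higher in 3, lower in 3 and the rest not called. Aspn, Kctd12 and Dpep1 were higher (1.91, 4.23 and 6.6), while Col1a1 was not called (0.51, adjusted p = 0.0572, edgeR) unless smooth muscle replicate 4 was left out, or with DESeq2 or the replicate number as a block. Egfl6 ranged over 194 to 554 and 466 to 506 CPM (adjusted p = 0.796) and was higher in osteoblasts without replicate 4 (0.16). Of the bone genes, Ibsp was higher than in smooth muscle cultures with and without replicate 4 (4.85 and 3.48). Alpl was not called with it (1.86, adjusted p = 0.213) and was lower without it (-0.79), and Sp7 was called higher with it and not without it (5.25, against 1.73, adjusted p = 0.0564). The call of Sp7 was also lost without smooth muscle replicate 1, 2 or 3. Il1rl1 was lower in osteoblasts (-5.91), at 0.755 to 1.35 against 44.3 to 75.6 CPM.

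**Figure D5:**
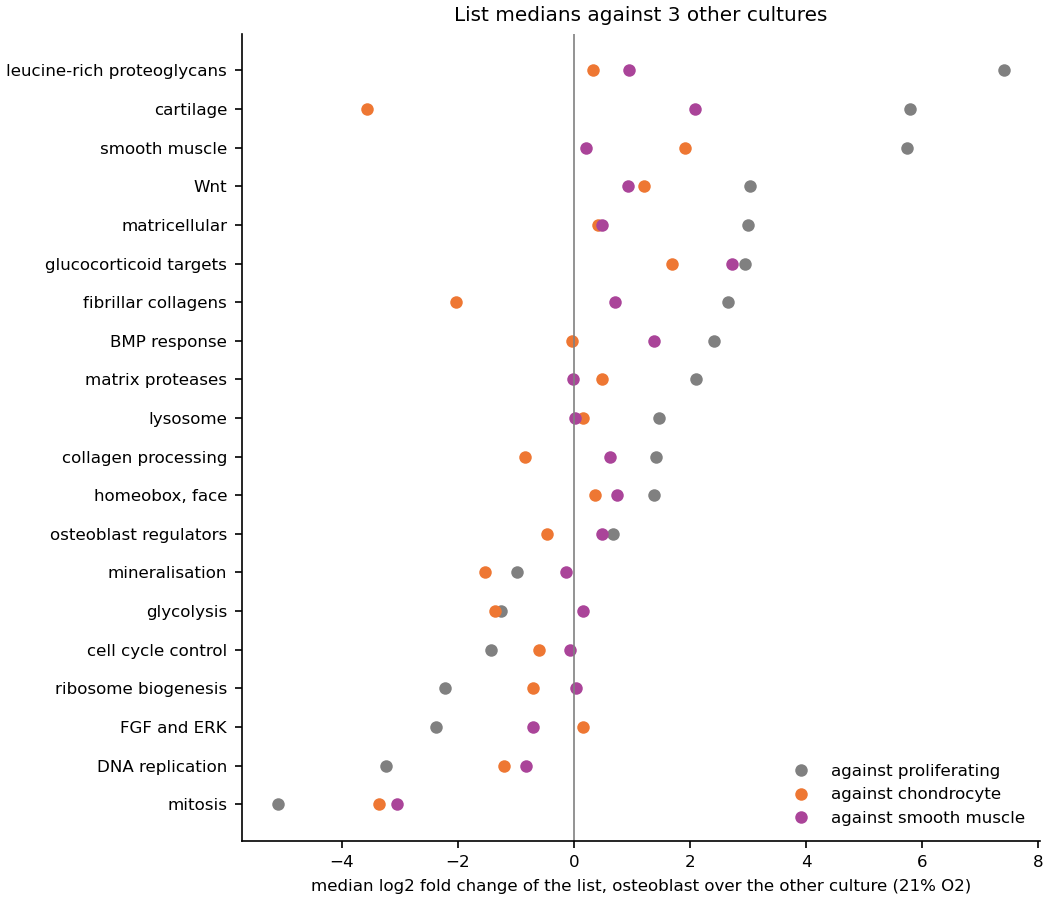
Median log2 fold change of each gene list in osteoblast libraries against proliferating (grey), chondrocyte (orange) and smooth muscle (purple) libraries at 21% O2. The glucocorticoid list is right of 0 in all 3 comparisons, the mitosis list left of 0 in all 3, and the fibrillar collagen list, chaperone included, left of 0 only against chondrocytes.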

How the data were processed

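Polyadenylated RNA of the cultures was sequenced at a provider with a stranded kit, per the labels' protocols. The authors deposited raw read counts per gene for all 28 libraries, named by their headers, together with 10 tables of normalized values that were not used here. The submitters' processing notes name HISAT2 2.0.5, StringTie 1.3.3b, featureCounts 1.5.0-p3 and mm10, with no role or order, and the annotation and strand setting are not given in the sources used here, so antisense or overlapping genes and near-identical copies may share reads. Of 54429 gene identifiers, 99.8% had a symbol.

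From the counts, edgeR 4.0.16 (R 4.3.3) was run with TMM scaling, its default filter on low counts, robust quasi-likelihood fits and Benjamini-Hochberg adjustment over all genes tested, with a threshold of 0.05, after the scripts were tested on simulated data. Standard errors are the size of the log2 fold change over the square root of F. DESeq2 1.42.0 and limma 3.58.1 served as alternatives. List medians stayed the same to 2 decimals when genes at 0 counts in one group were set at their lower limits.

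The gene lists, the rule for named genes (the 3 markers, the 12 largest rises and falls and the 10 largest gains and losses of CPM among genes called with and without osteoblast replicate 4 and with a mean of at least 50 CPM in the higher group, passing over genes without a symbol, predicted genes, pseudogenes and mitochondrial genes, up to 4 members of each list in each direction, and the 10 genes with a mean of at least 10 CPM furthest each way in osteoblast replicate 4) and the tests were chosen with earlier results of these data known. Members that were not called, and those at 0, were named outside that rule after their values were seen. Some genes that the rule names are not reported here.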

Additional observations from a re-analysis of the deposited data

Results flagged for a closer look

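Among the 104 genes given library by library, 1 library stood apart from the other 3 of its group in 96 of 208 groups of 4. The gap to the nearest library was then above Dixon's 95% limit for 4 values as a share of the group's range, which chance passes in about 1 in 20 groups. Some of these genes were named because osteoblast replicate 4 lay far from its group, so this count is a description of the genes shown and is not to be set against chance. The library was osteoblast replicate 4 in 68 of these and proliferating replicate 4 in 21. Over all 14434 genes tested, 19% of the osteoblast groups and 9.4% of the proliferating groups passed the limit.

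Osteoblast replicate 4 was above its group for Actg2 at 41, Alpl at 46.6, Alx4 at 6.64, Ankrd1 at 14, Boc at 472, Ccn2 at 1253, Cdkn1c at 160.4, Cebpa at 6.23 and Col1a1 at 10804 CPM. Higher there than in the other 3 were also Col2a1 at 903, Col9a1 at 123, Col9a2 at 57.5, Cxcl14 at 50.3, Dlx5 at 28.7, Eno1 at 287, Erbb3 at 3.77, Fgfr2 at 1113 and Fgfr3 at 185 CPM. That library further held Fmod at 371, H19 at 367, Hey1 at 102, Hmga2 at 92.4, Ibsp at 3.73, Igf1 at 93.1, Igf2 at 2.57, Igfbp7 at 306 and Kctd12 at 1881 CPM, above the rest. Also raised in it were Krt19 at 82.3, Ldha at 363, Mcm5 at 22.3, Msx2 at 28.6, Myc at 46.8, Myl9 at 582, Nkd1 at 31.9, Nog at 87.5 and Pth1r at 33.6 CPM. So were Smad9 at 46.9, Sox9 at 225, Sp7 at 52.9, Sparc at 7269.5, Tgfbi at 374, Timp1 at 54.2, Tnn at 6639.5, Ube2c at 3.36 and Uhrf1 at 17.9 CPM. Osteoblast replicate 4 was above its group for Wif1 at 53.4, Wnt4 at 48.6 and Zfp423 at 5.3 CPM. It was below its group for Adamts5 at 12.7, Apod at 54.8, Aspn at 3896, Bst2 at 17.5, C1ra at 107, C1s1 at 102, Ccnd1 at 114, Col11a1 at 1688 and Crabp1 at 9.36 CPM. Lower there than in the other 3 were Crabp2 at 7.53, Cxcl12 at 121, Dpep1 at 301, Egfl6 at 198, Fgf18 at 3.99, Klf15 at 32.2, Lamp2 at 658, Lifr at 89.96 and Lox at 5744 CPM. Also low in it were Ogn at 4558 and Tgfa at 134 CPM.

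Proliferating replicate 4 was above its group for Areg at 99, C1ra at 4.34, Ccl2 at 30.7, Col11a1 at 7.65, Col2a1 at 0.0789, Lox at 67, Pfkp at 18.6, Phex at 32.2 and Slc7a11 at 65 CPM. It was also above for Spp1 at 2972, Tgfa at 5.21, Tgfbi at 81.8 and Wif1 at 0.0394 CPM. It was below its group for Ccnb1 at 179, Ccnd1 at 1209, Cxcl12 at 18.9, Dkk2 at 748, Il1rl1 at 728, Mmp3 at 35.6, Myc at 175 and Ube2c at 173 CPM. In other libraries, the value apart was 0.147 CPM for Alpl in proliferating replicate 3, 0.0149 CPM for Col9a2 in proliferating replicate 2, 1355 CPM for Eno1 in proliferating replicate 3, 0.0149 CPM for Fmod in proliferating replicate 2, 0.238 CPM for Gpx3 in proliferating replicate 2, 0.0598 CPM for Hey1 in proliferating replicate 1, 0 CPM for Mycn in osteoblast replicate 2, most of them within a few counts of 0.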

How the results depend on the processing

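The number of genes called between osteoblast and proliferating libraries was 11359, and stayed between 9743 and 12513 over other scaling, filters, tools (DESeq2 11409) and a fit on all 16 normoxic libraries, and between 11052 and 12119 with 1 library left out. Those called with at least a 2-fold change numbered 6387 (4753 to 7868, and 6443 to 6788 with 1 library left out). Against chondrocytes 8546 genes were called (7657 to 9736 with 1 library left out, 8792 with DESeq2), and against smooth muscle 7249 (6457 to 8852, 7523 with DESeq2). In each comparison the highest leave-out count came without osteoblast replicate 4. Replicate numbers showed no pairing with proliferating or chondrocyte libraries, whereas for smooth muscle this is not settled. Correlations of same-numbered deviations were -0.04 to -0.024 with proliferating, -0.239 to -0.014 with chondrocyte and 0.053 to 0.169 with smooth muscle libraries. Between different numbers they were -0.095 to 0.067, -0.075 to 0.2 and -0.122 to 0.071. With the replicate number as a block, 11114 genes were called (6368 with at least a 2-fold change), 7698 against chondrocytes and 7275 against smooth muscle. Of 280 results for named genes, 244 kept their direction and call under every alternative run. With 1 library left out the log2 fold change ran from -0.23 to 0.26 for Junb, -1.57 to 2.78 for Krt19, -0.16 to 0.10 for Loxl4, -1.41 to 0.99 for Notum, -1.23 to 0.99 for Tgfbi and, against smooth muscle, -0.21 to 0.16 for Egfl6 and -0.79 to 2.23 for Alpl, and in each the sign turned without osteoblast replicate 4. No skeletal muscle gene passed a filter of 10 counts in every library, so that list has no median there. Clic5, Col2a1, Nog, Osbp2 and Sp7 lost their call with limma-voom, and Col9a1 with no filter. The cause was not tested. Depth limits what can be said of genes near 0 counts, such as osteocalcin, whose near-identical copies may also share reads. For the rest, the limit is 4 libraries a group, of which 1 stands apart.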
